A study of Homo sapiens with 4 samples.

Results

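The OVCA420 cells that still held *COL1A1* transcripts after 7 days of TGF-β1 were compared with the 7-day cells in which none was counted. OVCA420 is a line of epithelial ovarian cancer cells. Untreated cells (Ctrl) and cells kept with TGF-β1 at 10 ng/mL for 1 day (1-day), 3 days (3-day) or 7 days (7-day) were each profiled once by droplet-based scRNA-seq. All 4 libraries share the line, and no second culture of any time point was analysed here. A 7-day cell was called *COL1A1*-positive when 2 or more *COL1A1* unique molecular identifiers (UMIs, each standing for 1 counted transcript) were found in it, and *COL1A1*-negative when 0 were found. Cells with more than 200 genes, at most 20% mitochondrial UMIs and at least 18000 UMIs were kept. In each library only the first barcodes of the list had complete counts in the matrices as used here, 572 of 2484 at 7-day. After the filters 549 cells remained at 7-day of 2970 in the 4 libraries. Of the 549, 77 were *COL1A1*-positive and 326 were *COL1A1*-negative. The other 146 cells held 1 *COL1A1* UMI and were described on their own.

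*COL1A1* encodes the α1 chain of type I collagen, which is normally assembled with the α2 chain, encoded by *COL1A2*, and secreted into the extracellular matrix, chiefly by fibroblasts. TGF-β1 binds a pair of receptor kinases that activate SMAD transcription factors, and collagen genes and the feedback inhibitor *PMEPA1* are textbook targets of this pathway. In epithelial cells the cytokine induces an epithelial-mesenchymal transition (EMT), in which matrix genes are raised and junction and keratin genes are often lowered. The question asked here was which other genes went with *COL1A1* among cells of the same library.

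The kept cells of the 7-day library held 25123249 UMIs, with a median of 44018 per cell. Depth was close in the groups, with a median of 45543 UMIs and 6673 genes in *COL1A1*-positive cells and 42679.5 UMIs and 6347.5 genes in *COL1A1*-negative cells. The median mitochondrial share was 6.38% in positive and 6.32% in negative cells. Of the 7-day barcodes, 7 were also present in Ctrl, 1 at 1-day and 3 at 3-day. Scrublet called 4 of the 77 positive and 4 of the 326 negative cells doublets, and 2 cells of each group exceeded 80000 UMIs. Both were thus more frequent among positive cells. CPM (counts per 1000000) are UMIs of a gene per total UMIs, both summed over the cells of a group. The epithelial markers *EPCAM* (293 CPM in positive cells, 297 CPM in negative cells) and *KRT7* (841 and 856 CPM) were abundant in both, whereas *WT1* had 0 UMIs, *MUC16* had 0 and 2 UMIs and *PAX8* had 1 and 4 UMIs. Defining markers of other cell types were at or near 0, apart from *CALB2*. Of the 7 other fibroblast markers, *COL1A2*, *COL3A1*, *DCN* and *THY1* had 0 UMIs in all 549 cells, and the 7 together summed to 0.271 CPM in positive and 0.349 CPM in negative cells. Endothelial markers summed to 0.542 and 0.349 CPM, smooth muscle markers to 0.813 and 1.33 CPM, leukocyte markers to 0 and 0.0698 CPM and mesothelial markers to 12.7 and 13.2 CPM, nearly all of the last being *CALB2*.

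*COL1A1* itself chose the cells, so its values describe the groups and were not tested. Most 7-day cells had none, and few had many. Of the 549 cells, 326 had 0 UMIs, 146 had 1, 44 had 2, 20 had 3 and 13 had 4 or more, with a maximum of 16. The 77 positive cells made up 14.0% of the kept cells (exact Clopper-Pearson 95% interval 11.2 to 17.2%). This share describes the first part of the barcode list only, and it was not even along that part, as given below. The positive cells held 225 of the 371 *COL1A1* UMIs (60.6%), which is 61.0 CPM within them, against 14.8 CPM in all 549 kept cells. The variance of *COL1A1* UMIs over cells was 2.24 times their mean, against 1 for counts drawn at a common level and depth. The kept cells did not share a depth (18083 to 111781 UMIs), and 1 cell alone held 16 of the *COL1A1* UMIs. The part of either in this ratio was not tested. The cells just outside the threshold are the 146 with 1 UMI (20.5 CPM), and those just inside it are the 44 with 2.

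The share of *COL1A1*-positive cells was low in Ctrl, highest at 1-day and lower again at each later time. It was 1.66% in Ctrl (14 of 844 cells), 79.1% after 1 day (712 of 900), 52.3% after 3 days (354 of 677) and 14.0% after 7 days. The order was the same when every cell was thinned to 18000 UMIs, at 0.711%, 60.0%, 25.4% and 4.74%. The intervals of these shares did not overlap between libraries, but they cover counting error only, as do all intervals given here. Each share covers only cells among the first listed barcodes of its library. With 1 library per time, the time with TGF-β1 and the library cannot be told apart.

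**Figure D1:**
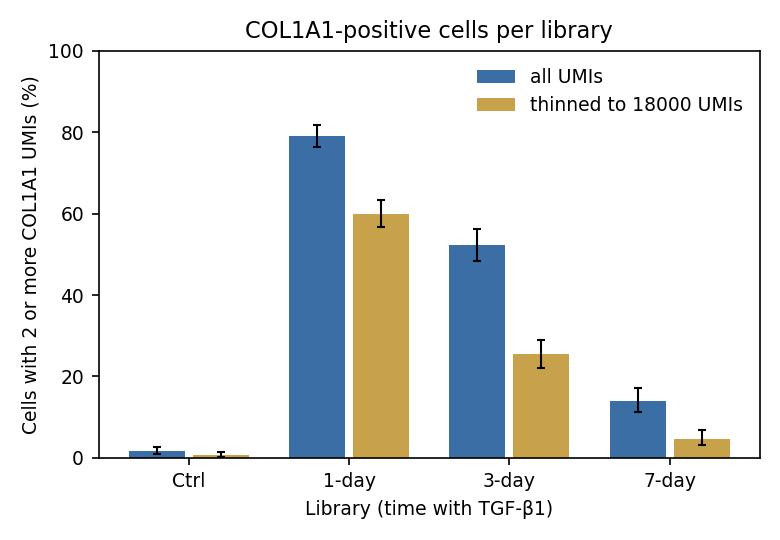
Share of kept cells with 2 or more *COL1A1* UMIs (y axis, percent) in each library (x axis), from all UMIs (blue) and after thinning each cell to 18000 UMIs (yellow), with exact 95% binomial intervals. The share is 79.1% at 1-day and 14.0% at 7-day from all UMIs, and 60.0% and 4.74% after thinning.

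Few genes differed by much between *COL1A1*-positive and *COL1A1*-negative cells of the 7-day library. Among 5722 genes with a mean of at least 20 CPM over the groups, *COL1A1* left out, 23 were at least 1.5-fold higher in positive cells (0.402% of genes) and 11 at least 1.5-fold lower (0.192%). A gene could reach that mean through 1 group alone, as *FOXS1* did (27.6 CPM in positive, 14.0 CPM in negative cells). *NTHL1* did so in the other direction (15.7 and 25.1 CPM). Of the higher genes, *SLC12A9*, *HNF4A*, *GRPEL2*, *CCPG1*, *TULP4*, *ULK1*, *PBX3*, *HELZ2* and *BBC3* were likewise under 20 CPM in negative cells. Of the lower genes, *MRPL46*, *CCDC88A*, *NUF2* and *MPDU1* were likewise under 20 CPM in positive cells. The filter thus partly depends on the difference it is used to report. The 95% counting interval of the log2 ratio lay beyond 0 for all 34. At this level and ratio the summed UMIs are many enough that it had to, so the interval adds no support. Over the 5722 genes the median log2 ratio was 0.02 with 5% of the ratios under -0.27 and 5% over 0.32. Because the cells come from 1 library, they are not replicates, and no p-value is given.

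**Figure D2:**
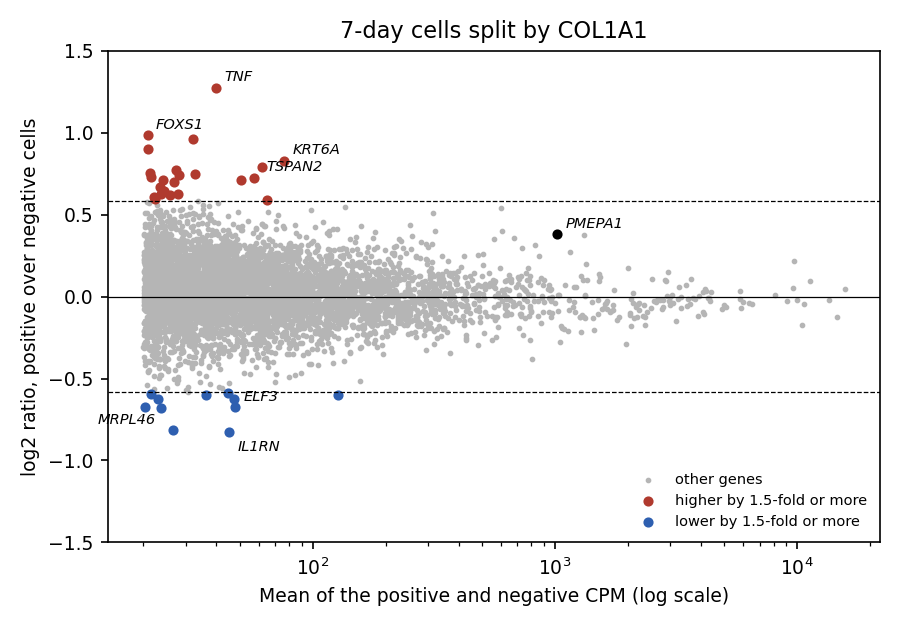
Log2 ratio of CPM in *COL1A1*-positive over *COL1A1*-negative 7-day cells (y axis) against the mean of both CPM values (x axis, log scale) for the 5722 genes compared, with 23 genes at least 1.5-fold higher in red, 11 at least 1.5-fold lower in blue and the dashed lines at 1.5-fold. The genes past 1.5-fold lie mostly under 100 CPM, while *PMEPA1* (black) reaches a log2 ratio of 0.38 at a much higher level.

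The largest ratio was that of *TNF*, the inflammatory cytokine tumor necrosis factor. *TNF* had 56.6 CPM in positive cells (209 UMIs) and 23.4 CPM in negative cells (335 UMIs), a log2 ratio of 1.28 (95% counting interval 1.02 to 1.53). Over the 77 positive cells it ranged from 0 to 385 CPM with a median of 20.4, and over the 326 negative cells from 0 to 316 CPM with a median of 0, so the ranges overlapped almost entirely and more of the positive cells carried it. After thinning to 18000 UMIs, *TNF* was detected in 48.1% of positive cells (interval 36.5 to 59.7%) and 27.3% of negative cells (22.5 to 32.5%). No cell type that should lack a gene is present in a single cell line. No background share from free RNA can therefore be given beside such shares, although *TNF* was at 0.208 CPM over the kept Ctrl cells. The 3 highest positive cells held 30.1% of its UMIs in that group, and the log2 ratio without them was 0.76. Of 25 measured chemokine, cytokine and NF-κB target genes, *TNF* alone was past 1.5-fold, and the list's median log2 ratio was 0.08 against 0.02 over all genes. *CCL5*, a T-cell-attracting chemokine, had 66.9 CPM in positive and 81.1 CPM in negative cells and 147 CPM in cells with 1 *COL1A1* UMI, with 53.4% of its positive-cell UMIs in 3 cells. *CD274*, which encodes PD-L1, had 13.8 and 10.1 CPM (log2 ratio 0.46, -0.03 to 0.93).

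Without their own UMIs in their 3 highest positive cells, *FOXS1* and *SLC12A9* were the only other higher genes still past 1.5-fold. *FOXS1* is a forkhead transcription factor and *SLC12A9* a member of the cation-chloride cotransporter family. Both were under 20 CPM in negative cells and entered the comparison through their level in positive cells. *FOXS1* had 27.6 CPM in positive and 14.0 CPM in negative cells (log2 ratio 0.98, 0.63 to 1.34). It was detected after thinning in 36.4% and 20.2% of cells. Its level passed from 3.57 CPM in the Ctrl library to 161, 97.3 and 17.1 CPM in the 1-day, 3-day and 7-day libraries, a course like that of *COL1A1* (3.99, 141, 63.4 and 14.8 CPM). *SLC12A9* had 27.1 and 14.5 CPM (0.90, 0.54 to 1.25), and its library level stayed between 10.6 and 17.3 CPM. With the 3-day and 1-day cells split in the same way, *FOXS1* had log2 ratios of -0.11 (-0.24 to 0.01) and 0.63 (0.43 to 0.83). Those of *SLC12A9* were -0.22 (-0.53 to 0.10) and -0.34 (-0.92 to 0.30). The other 20 higher genes came to between 26.8 and 97.3 CPM in positive cells, with log2 ratios from 0.59 to 0.96.

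These 20 had varied roles. *PCDH9*, a protocadherin, had the highest log2 ratio among them (0.96, 42.3 against 21.7 CPM), and 3 cells held 34.6% of its positive-cell UMIs. *BBC3*, a pro-apoptotic BCL2-family gene, had 26.8 and 15.9 CPM, but 3 cells held 51.5% of the UMIs and the median was 0 CPM in both groups. *TNFSF10*, which encodes the death receptor ligand TRAIL, had 78.0 and 45.2 CPM (0.79, 0.58 to 0.99) and was detected after thinning in 70.1% of positive and 45.1% of negative cells. The broad spread of *TNFSF10* over cells thus differed from the concentration of *BBC3* in a few. *CD81*, a tetraspanin, had 77.8 and 51.6 CPM (0.59, 0.39 to 0.79). *ULK1*, an autophagy kinase, and *CCPG1*, a receptor for degradation of the endoplasmic reticulum, had log2 ratios of 0.67 and 0.62. *HNF4A*, a nuclear receptor, had 26.8 and 17.7 CPM (0.60, 0.25 to 0.94). *CREB5*, *PBX3* and *ZC3HAV1*, which encode a bZIP factor, a homeobox factor and an antiviral zinc finger protein, had ratios of 0.74, 0.71 and 0.77. The genes *ST3GAL5*, *SLC2A5*, *HELZ2*, *FAM43A*, *TULP4*, *FAAP100*, *GRPEL2* and *RP4-639F20.1* lay between 0.61 and 0.75, and the remaining members of the group were *KRT6A* and *TSPAN2*, described with their lists.

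Of the 11 genes lower in *COL1A1*-positive cells, *IL1RN*, *MRPL46* and *NTHL1* stayed past 1.5-fold without the 3 highest negative cells. *IL1RN* encodes the secreted antagonist of the interleukin-1 receptor and had 32.5 CPM in positive and 57.8 CPM in negative cells (log2 ratio -0.83, -1.12 to -0.55). It was detected after thinning in similar shares of the cells, 41.6% and 43.3%, and its maximum was 212 CPM over positive and 636 CPM over negative cells. The maxima were taken over unequal numbers of cells, 77 positive and 326 negative, so they cannot be compared directly. The summed level of *IL1RN* differed more between the groups than the share of cells in which it was detected. *MRPL46*, a protein of the mitochondrial ribosome, had 19.2 and 33.8 CPM (-0.81, -1.19 to -0.45), and *NTHL1*, a base excision repair glycosylase, 15.7 and 25.1 CPM (-0.67, -1.10 to -0.27). For *NTHL1* the detected share was 26.0% in positive and 39.9% in negative cells. The other 8 were *CCDC88A*, *ELF3*, *EXOSC5*, *NUF2*, *CTNNBL1*, *G0S2*, *MPDU1* and *CHORDC1*, with log2 ratios from -0.68 to -0.59. *G0S2*, an inhibitor of triglyceride breakdown, had 101 and 153 CPM, but 3 cells held 69.4% of its positive-cell UMIs and the median was 0 CPM in both groups.

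Most genes of the TGF-β pathway were slightly higher in *COL1A1*-positive cells. Of 46 target and feedback genes, 29 were measured, of which 25 had a log2 ratio above 0 and 17 an interval above 0, with a median of 0.20 against 0.02 over all genes. Only *TSPAN2* passed 1.5-fold. Over all 5722 genes 54.9% of the ratios were above 0, which is the background for the 25 of 29. An interval above 0 was found for 725 of the 5722, which is the background for the 17 of 29. The count was 14 of 29 within cells called G1 (neither S nor G2M by their cell cycle genes) and 15 of 29 among the last 275 kept 7-day cells in barcode order. With groups chosen from thinned *COL1A1* UMIs it was 20 of 30, with a median of 0.11. Over all genes in that setting 57.8% were above 0 and the median was 0.07. Among extracellular targets, *CTGF*, a matricellular protein, had 367 CPM in positive and 258 CPM in negative cells (log2 ratio 0.51, 0.42 to 0.60), and *TGFBI*, a matrix adhesion protein, 344 and 275 CPM (0.32, 0.23 to 0.41). Both were also above their negative-cell level in the cells with 1 *COL1A1* UMI, at 324 CPM each, though both ratios share the same negative cells. *THBS1* (550 and 460 CPM) and *TNC* (86.7 and 65.0 CPM), which encode thrombospondin-1 and tenascin-C, had ratios of 0.26 and 0.42.

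Among the pathway's own components, *PMEPA1*, which sequesters receptor-activated SMADs, had 1156 CPM in positive and 888 CPM in negative cells (log2 ratio 0.38, 0.33 to 0.43). Per cell, *PMEPA1* ranged from 70.8 to 2603 CPM with a median of 1159 over positive cells, and from 52.4 to 3204 CPM with a median of 832 over negative cells. Of the 77 positive cells, 54 (70.1%) lay above the negative median, while the ranges overlapped fully. The receptors *TGFBR1* and *TGFBR2* had log2 ratios of 0.37 (0.15 to 0.58) and 0.25 (0.11 to 0.39). The ligand *TGFB1* had a ratio of 0.04 (-0.08 to 0.16). *ID1*, a helix-loop-helix inhibitor that BMP signaling raises, was the only list member with an interval below 0, at 59.3 and 78.1 CPM (-0.40, -0.61 to -0.19).

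**Figure D3:**
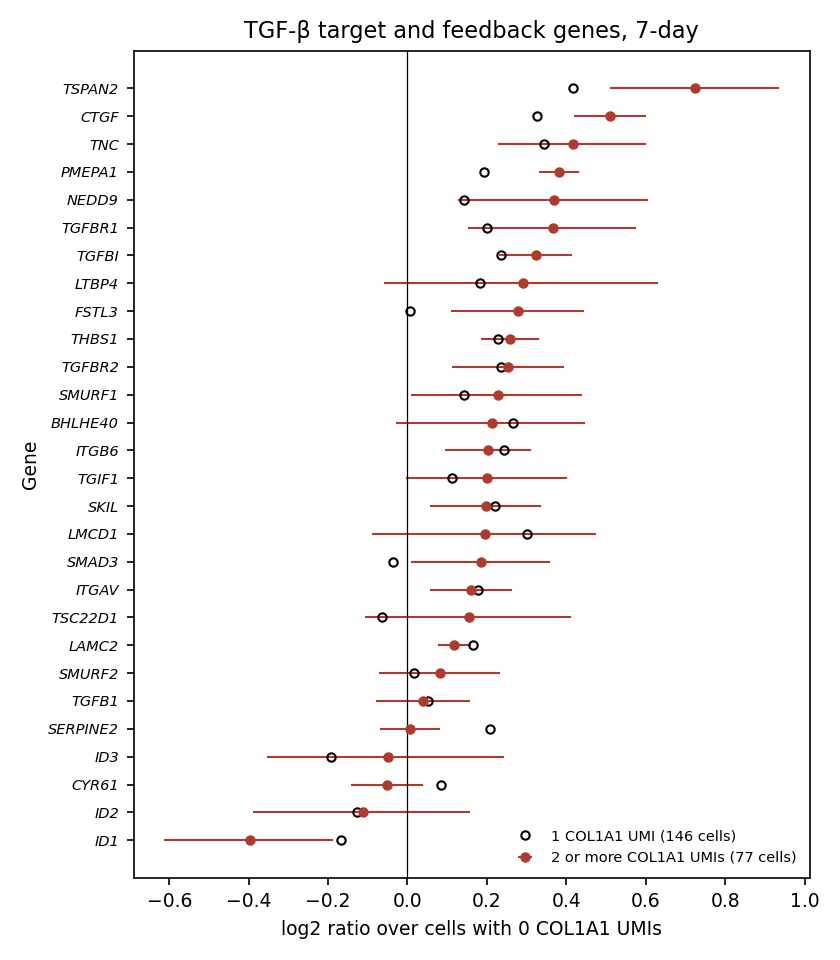
Log2 ratio over *COL1A1*-negative 7-day cells (x axis) for 28 of the 29 measured TGF-β target and feedback genes (y axis), in cells with 2 or more *COL1A1* UMIs (red, with 95% counting intervals) and in cells with 1 (open). Of the red points 24 lie above 0, from *TSPAN2* at 0.73 down to *ID1* at -0.40, and both sets of points use the same negative cells.

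*TSPAN2* encodes a tetraspanin membrane protein and belonged to 2 of the lists, the TGF-β genes and the genes raised late. It had 71.0 CPM in positive and 42.9 CPM in negative cells (log2 ratio 0.73, 0.51 to 0.94), with 57.4 CPM in cells with 1 *COL1A1* UMI. Over positive cells it ranged from 0 to 315 CPM (median 56.4), and over negative cells from 0 to 309 CPM (median 29.9). It was nearly absent from Ctrl (0.347 CPM) and came to 14.4 CPM at 1-day, 44.7 at 3-day and 51.1 at 7-day, so its level was higher in each later library, whereas the share of *COL1A1*-positive cells was lower in each library after 1-day.

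The promoter of *TSPAN2* is shown as that of the TGF-β list member past 1.5-fold, and the promoter of *FAM43A* because its interval lay above 0 in each treated library, as given with the 3-day and 1-day cells. Among the 23 higher genes it also held for *HNF4A*, which is not shown because RefSeq lists more than 1 start for it. In GRCh38, *TSPAN2* lies at chr1:115048011-115089503 on the minus strand, *FAM43A* at chr3:194685883-194689037 on the plus strand and *COL1A1* at chr17:50184101-50201632 on the minus strand. The 250 bases before the RefSeq start of each gene (GRCh38.p14) are given 5′ to 3′ on the gene's strand, for *TSPAN2* at chr1:115089504-115089753 and for *FAM43A* at chr3:194685633-194685882.
TSPAN2: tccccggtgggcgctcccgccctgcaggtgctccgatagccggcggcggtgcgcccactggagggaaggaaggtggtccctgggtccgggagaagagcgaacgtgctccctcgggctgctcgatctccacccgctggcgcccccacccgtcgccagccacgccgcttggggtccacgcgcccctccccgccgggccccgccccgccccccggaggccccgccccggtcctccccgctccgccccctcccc
FAM43A: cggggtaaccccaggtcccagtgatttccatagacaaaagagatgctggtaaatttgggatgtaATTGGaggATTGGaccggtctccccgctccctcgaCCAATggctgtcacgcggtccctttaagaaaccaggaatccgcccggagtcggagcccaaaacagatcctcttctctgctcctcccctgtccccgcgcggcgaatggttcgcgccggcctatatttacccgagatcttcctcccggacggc
Capitals mark CCAAT or its reverse complement ATTGG, the box bound by NF-Y. The SMAD core motif CAGAC and its reverse complement GTCTG were searched on the same bases. *FAM43A* held 3 CCAAT matches and 0 CAGAC matches, and *TSPAN2* held 0 of either. Of 35116 RefSeq promoters of this length, 32.0% held CCAAT and 38.0% held CAGAC on either strand. A match or its lack describes these letters only.

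Other collagen genes were slightly higher in *COL1A1*-positive cells, and the partner chain of *COL1A1* was not found. *COL1A2* and *COL3A1* each had 0 UMIs in the positive cells, which allows a level of up to 0.813 CPM, that of 3 UMIs. Of 28 other collagen chains, the 5 that were measured all had a log2 ratio above 0 and none passed 1.5-fold. Among the last 275 kept cells in barcode order, 2 of the 5 were above 0. The basement membrane chains *COL4A1* and *COL4A2* had 80.2 against 60.3 CPM (log2 ratio 0.41, 0.22 to 0.60) and 151 against 126 CPM (0.27, 0.13 to 0.40). *COL27A1* had a ratio of 0.45 (0.14 to 0.76), while the intervals of *COL18A1* (0.22, -0.07 to 0.51) and *COL17A1* (0.14, -0.05 to 0.33) included 0. The genes that fold, process and crosslink collagen showed no common direction, with 5 of 12 above 0 and a median of -0.01. *LOXL4*, a lysyl oxidase, had the highest ratio of these (0.35, 0.07 to 0.63) and *SERPINH1*, the collagen chaperone, had 20 UMIs (5.42 CPM) in positive and 54 (3.77 CPM) in negative cells. *SPARC*, a collagen-binding matrix protein, had 2 and 9 UMIs.

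Mesenchymal genes and transcription factors were split, with 6 of 12 above 0, a median of -0.01 and none past 1.5-fold. *FN1*, which encodes fibronectin, had 291 CPM in positive and 215 CPM in negative cells (log2 ratio 0.44, 0.34 to 0.54). *SOX4*, a transcription factor that TGF-β raises, had 687 and 520 CPM (0.40, 0.34 to 0.47). *SNAI2*, which encodes the EMT factor SLUG, had 43.1 and 38.0 CPM, with an interval that included 0 (0.18, -0.08 to 0.44). In the other direction lay *AXL*, a receptor tyrosine kinase (-0.55, -0.89 to -0.23, but 0.73 within G1 cells), the matrix metalloproteinase *MMP9* (-0.35, -0.55 to -0.16) and *FOSL1*, an AP-1 subunit (-0.29, -0.48 to -0.10). *VIM*, which encodes vimentin, had 0 UMIs in positive cells and 4 in negative cells.

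**Figure D4:**
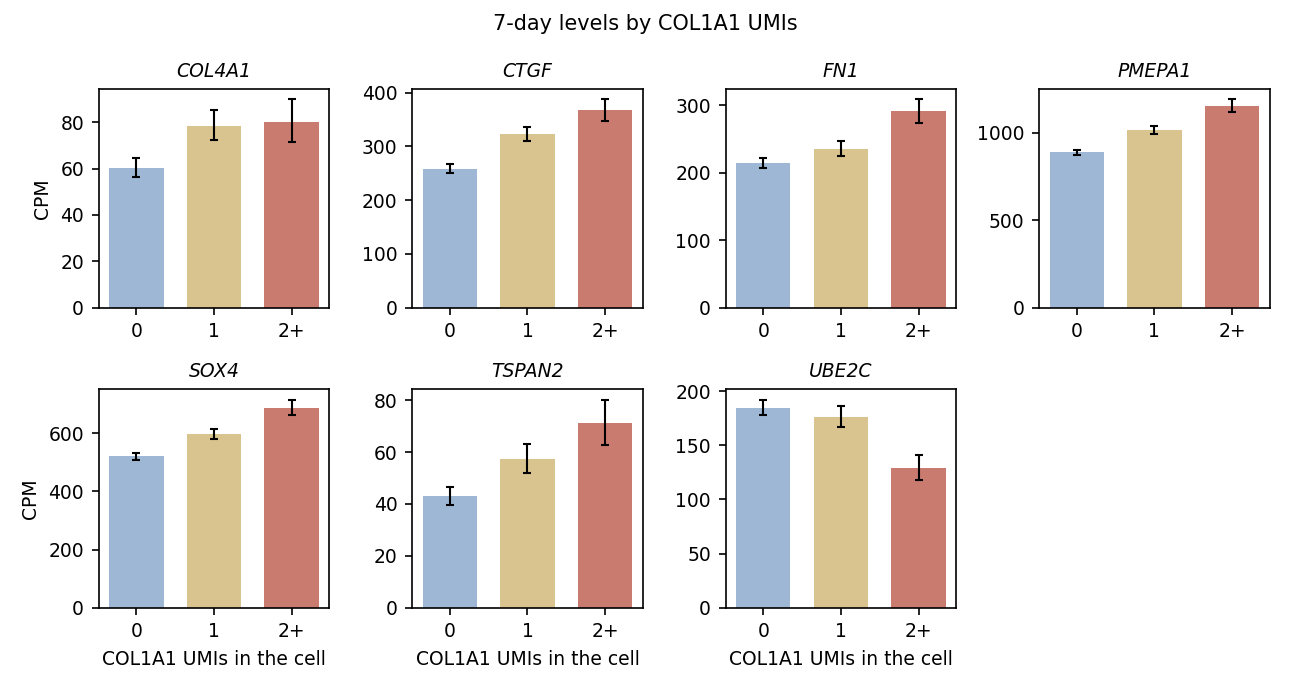
CPM (y axes, from 0) of 7 genes in 7-day cells with 0, 1 and 2 or more *COL1A1* UMIs (x axes), with exact 95% Poisson intervals. *PMEPA1* passes from 888 to 1015 and 1156 CPM, and *UBE2C* from 185 to 176 and 129 CPM. All 7 genes drawn change in order, whereas 15 of the 29 measured TGF-β genes rose in order and 18 of the 37 measured G2M genes fell in order. Of all 5722 genes, 1236 rose and 951 fell in order.

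Epithelial genes were split. Of 30 measured, 18 were below 0, 8 of them with an interval below 0, and 12 were above, 3 of them with an interval above 0. The median was -0.03, and *ELF3* was the only gene past 1.5-fold. Of the 10 markers of ovarian carcinoma epithelium, 7 were measured and 6 of these were below 0, 4 with an interval below 0 and none with an interval above, with a median of -0.22. In cells with 1 *COL1A1* UMI 4 of the 7 were above 0 (median 0.05). The other treated libraries did not share the direction, with 7 of 7 above 0 at 3-day (median 0.20) and 5 of 7 at 1-day (median 0.12). At 7-day the 10 markers summed to 3666 CPM in positive and 4140 CPM in negative cells. *ELF3*, an epithelial ETS transcription factor, had 36.9 CPM in positive and 58.7 CPM in negative cells (log2 ratio -0.67, -0.94 to -0.41), and 0.17 within G1 cells. The simple epithelial keratins *KRT8* (721 and 865 CPM), *KRT18* (1190 and 1383 CPM) and *KRT19* (499 and 600 CPM) had ratios of -0.26, -0.22 and -0.27. *CDH1*, which encodes E-cadherin, was at 84.3 and 79.7 CPM (0.08, -0.11 to 0.26), and *EPCAM* had a ratio of -0.02 (-0.12 to 0.07). Some genes of stratified epithelium lay in the other direction. *KRT6A* had 97.3 and 54.7 CPM (0.83, 0.65 to 1.01), *KRT17* had 1487 and 1146 CPM (0.38, 0.33 to 0.42), and the basal epithelial factor *TP63* had 84.3 and 59.6 CPM (0.50, 0.31 to 0.69). Of the 14 stratified epithelium genes measured, 11 were above 0, with a median of 0.18.

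Actin and contractile genes were above 0 for 20 of 25 (median 0.13, none past 1.5-fold), led by *TPM1* (tropomyosin, 804 and 654 CPM, log2 ratio 0.30) and *CALD1* (caldesmon, 0.30). Among the last 275 kept cells in barcode order these were 0.04 and -0.05. The smooth muscle actin gene *ACTA2*, a marker of myofibroblasts, had 3 and 10 UMIs. Among arrest genes, *CDKN1A*, which encodes the CDK inhibitor p21, had 199 and 156 CPM (0.36, 0.24 to 0.48), and 7 of 12 were above 0. Immediate early and stress genes were above 0 for 18 of 24 (median 0.08). The median log2 ratio was 0.05 for 12 interferon and antigen presentation genes, 0.03 for 35 secretory pathway genes, -0.01 for 28 S phase genes and -0.04 for 20 glycolysis and hypoxia genes, and none of these genes passed 1.5-fold. *LGALS3*, which encodes galectin-3, was at 90.5 CPM in positive and 88.8 CPM in negative cells (0.03, -0.15 to 0.20).

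Most genes of the G2 and M phases were lower in *COL1A1*-positive cells. Of 37 measured, 31 were below 0 and 17 had an interval below 0, with a median of -0.22. Over all 5722 genes, 2578 were below 0 and 557 had an interval below 0. Among the last 275 kept cells in barcode order, however, only 10 of the 37 were below 0. With positive set at 3 or more *COL1A1* UMIs (33 cells), 17 of 40 were below 0 and the median was 0.08. *UBE2C*, a ubiquitin-conjugating enzyme of mitotic exit, had 129 and 185 CPM (log2 ratio -0.52, -0.66 to -0.38), *CCNB1* (cyclin B1) 30.9 and 44.8 CPM (-0.53, -0.84 to -0.25), and *NUF2*, a kinetochore component, 18.2 and 28.0 CPM (-0.63, -1.02 to -0.25). *TOP2A*, a topoisomerase of proliferating cells, did not share this direction, at 521 and 504 CPM (0.05, -0.03 to 0.12). Cells called G1 made up 45.5% of positive cells (35 of 77, interval 34.1 to 57.2%) and 36.2% of negative cells (118 of 326, 31.0 to 41.7%), with overlapping intervals. Cells called G2M were 33.8% and 38.0%.

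The phase of the cells moved with the TGF-β result. Phases were called from the S and G2M gene lists themselves, so no direction of those lists can be read within phases. Among G1 cells (35 positive, 118 negative), 14 of 29 TGF-β genes were above 0 with a median of -0.01. Among S and G2M cells (42 positive, 208 negative), 27 of 29 were above 0 with a median of 0.40. *PMEPA1* was higher in both (log2 ratio 0.28 in G1 and 0.42 in the others), and so was *TSPAN2* (0.74 and 0.65). *CTGF* (0.20 and 0.72) and *THBS1* (-0.30 and 0.74) differed more between phases. Other named genes changed sign, with log2 ratios in G1 and in S and G2M cells of 0.73 and -0.73 for *AXL*, 0.41 and -0.62 for *ID1*, -0.23 and 0.65 for *TGFBR2*, -0.27 and 1.07 for *TNC*, and -0.12 and 0.83 for *COL4A1*. The difference between the phases was not tested.

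The position of a cell in the barcode list also moved with the result. All kept 7-day cells come from the first 572 of the 2484 listed barcodes, so first and last refer to the order within that part. Barcodes are random sequences, yet *COL1A1*-positive cells were unevenly spread along it. Of the first 274 kept cells, 55 were positive (20.1%, interval 15.5 to 25.3%) and 155 negative, whereas of the last 275, 22 were positive (8.0%, 5.08 to 11.9%) and 171 negative. The median depth was 43431 and 44913 UMIs, and the mitochondrial share 6.28% and 6.31%. In the other libraries the shares in the first and last cells were 1.42% and 1.90% (Ctrl), 80.0% and 78.2% (1-day) and 50.6% and 54.0% (3-day). The lists behaved differently in the first and the last cells of the 7-day library. Of 29 TGF-β genes, 26 were above 0 among the first cells (median 0.31) and 15 among the last (median 0.01). Of 37 G2M genes, 36 and 10 were below 0. Positive cells called G1 made up 54.5% among the first cells and 22.7% among the last, against 30.3% and 41.5% of negative cells. Of the 23 higher genes, 21 were past 1.5-fold among the first cells, 11 among the last and 9 in both, and of the 11 lower genes 9, 5 and 3. The genes were chosen on all these cells together, so these counts are descriptions.

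*TNF* was higher in both parts, with log2 ratios of 1.23 among the first and 1.46 among the last cells. *FAM43A* (0.79 and 0.66), *HNF4A* (0.59 and 0.74), *ZC3HAV1* (0.70 and 0.74), *CD81* (0.62 and 0.60) and *IL1RN* (-0.66 and -0.89) likewise kept their size. *KRT6A* (1.88 and -0.22) and *TNFSF10* (1.20 and -0.05) had their ratio from the first cells only. *SOX4* (0.64 and 0.01) and *FN1* (0.65 and 0.01) did the same, while *PMEPA1* was higher in both (0.47 and 0.32). Ratios that were above 0 among the first cells lay below 0 among the last for *KRT17* (0.71 and -0.14), *LOXL4* (1.12 and -0.43), *TGFBR2* (0.56 and -0.17), *THBS1* (0.53 and -0.20), *TNC* (0.49 and -0.10) and *COL4A2* (0.46 and -0.12). *UBE2C* was at -0.86 and 0.04, and *TFPI2* at -0.64 and 0.03.

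**Figure D5:**
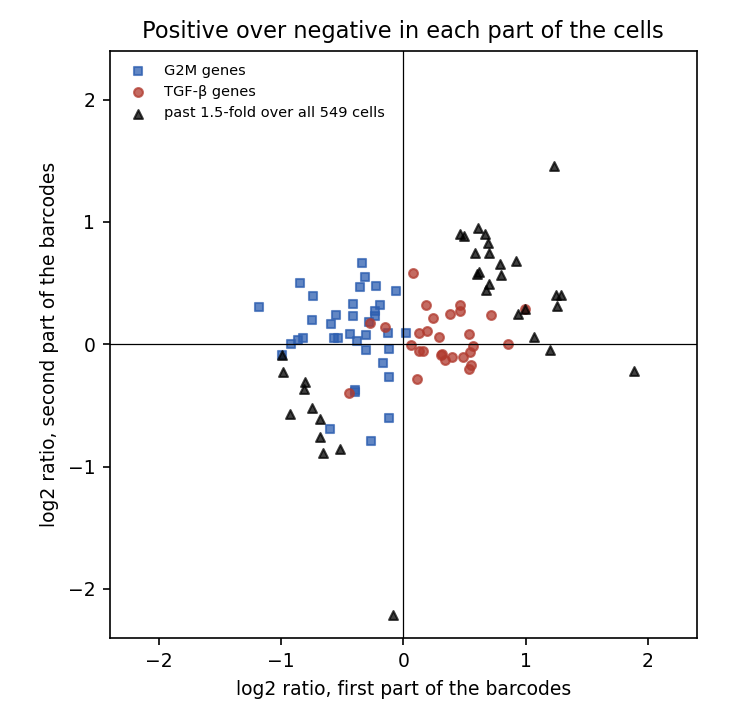
Log2 ratio of *COL1A1*-positive over *COL1A1*-negative cells among the first 274 (x axis) and the last 275 (y axis) kept 7-day cells in barcode order, for 37 G2M genes (blue), 29 TGF-β genes (red) and the 34 genes past 1.5-fold over all cells (black). Among the first cells 26 TGF-β genes lie above 0 and 36 G2M genes below 0, and among the last cells 15 and 10 do.

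The 3-day and 1-day libraries were not used to choose the 7-day cells and were split in the same way. At 3-day (354 positive, 162 negative cells), 37 of 5452 genes were at least 1.5-fold higher (0.679%) and 17 lower (0.312%). At 1-day (712 positive, 59 negative cells), 83 of 5160 were higher (1.61%) and 53 lower (1.03%). The 7-day genes did not carry over to 3-day as a set. Of the 23 genes higher at 7-day, 18 were measured at 3-day, of which 9 were above 0 and none passed 1.5-fold, against 53.6% above 0 over all genes. At 1-day 14 were measured, of which 10 were above 0, 4 were at least 1.5-fold higher and 1 at least 1.5-fold lower. Over all genes at 1-day, 48.8% were above 0. Of the 11 lower genes, 3 of 7 measured were below 0 at 3-day and 5 of 6 at 1-day. *TNF*, highest at 7-day, had log2 ratios of -0.45 (-0.75 to -0.15) at 3-day and -2.16 (-2.95 to -1.30) at 1-day, where the library held 2.65 CPM. *FOXS1* and *SLC12A9* were also below 0 at 3-day, with intervals that included 0.

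Some genes kept their direction in each treated library, of which only examples are given here. The intervals stayed on the same side of 0 at both 3-day and 1-day for 2 of the 23 higher and 1 of the 11 lower genes. *FAM43A* had log2 ratios of 0.75 (0.46 to 1.03) at 7-day, 0.42 (0.20 to 0.64) at 3-day and 0.59 (0.28 to 0.91) at 1-day, and *HNF4A* had 0.60, 0.31 (0.08 to 0.55) and 0.65 (0.38 to 0.94). *TSPAN2* had 0.73, 0.52 (0.31 to 0.74) and 0.53, the interval at 1-day including 0 (-0.10 to 1.24), where the library held 14.4 CPM. In the other direction, *IL1RN* had -0.83, -0.38 (-0.67 to -0.08) and -0.67 (-1.22 to -0.07), at levels under 20 CPM at 3-day and 1-day. These 4 genes were chosen after their values were seen, and no share over all genes is given beside them. The TGF-β list as a whole did not keep its direction, with 12 of 31 above 0 at 3-day (median -0.06) and 22 of 31 at 1-day (median 0.16). Its member *PMEPA1* had log2 ratios of -0.04 (-0.08 to -0.01) at 3-day and 0.22 (0.17 to 0.28) at 1-day. The G2M list was reversed at 3-day, where 34 of 35 genes were above 0, 23 passed 1.5-fold and the median was 0.66. The 3-day groups differed in phase, with 34.7% of positive and 19.8% of negative cells called G2M from these genes. They also differed in depth, with medians of 46793.5 and 40695 UMIs and 20 of 354 against 2 of 162 cells above 80000 UMIs, and doublets were not called there. The part of depth and doublets in the reversal was not tested. The 5 measured collagen chains other than *COL1A1* had medians of 0.16 at 3-day and 0.35 at 1-day, with *COL4A1* at 0.24 and 0.66.

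Genes with an early or a late course were followed into the 7-day cells. Early transient genes were those at least 2-fold higher at 1-day than in Ctrl and than at 3-day, as 47 genes were, without *COL1A1*. Only 14 were still measured at 7-day, of which 12 were above 0 and *ULK1* and *HNF4A* were past 1.5-fold, with a median of 0.06. With 18.1 and 17.7 CPM in negative cells, *ULK1* and *HNF4A* reached the mean of 20 CPM only through positive cells. Over all 5722 genes at 7-day, 54.9% were above 0, 0.402% were at least 1.5-fold higher and the median was 0.02. The same background applies to the late genes. Late genes were those at least 2-fold higher at 3-day than in Ctrl and than at 1-day. Of 75 measured, 53 were above 0, *TSPAN2* passed 1.5-fold and the median was 0.12. Within G1 cells 18 of 72 were above 0, and among the last 275 kept cells in barcode order 37 of 75 were. With positive and negative cells chosen from thinned *COL1A1* UMIs, 33 of 75 were above 0 and the median was -0.07. *GRB10*, a receptor adaptor (0.55, 0.28 to 0.82), *DRAM1*, an autophagy regulator (0.43, 0.30 to 0.56), and *FN1* were among the higher ones. *TFPI2*, a serine protease inhibitor, was lower (-0.38, -0.44 to -0.32). The late list lay in the other direction at 3-day, with 16 of 76 above 0, 12 at least 1.5-fold lower and a median of -0.16. At 1-day, 7 of 31 were above 0, 6 were at least 1.5-fold lower and the median was -0.35. The list was chosen on the levels of Ctrl and these 2 libraries.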

How the data were processed

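Droplet libraries of OVCA420 cells (Ctrl, 1-day, 3-day and 7-day, 1 each) were analysed. Reads had been processed by the authors with Cell Ranger (2.0.1 in the submitters' processing notes, GRCh38), and the deposited values are raw UMI counts per gene and cell. Of 3372, 2601, 2253 and 2484 listed barcodes, 941, 945, 712 and 572, the first of each list, had complete counts in the matrices as used here, so totals are not full library depth. Kept cells held between 25123249 and 32449989 UMIs per library.

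Counts were summed over the cells of a group and given as CPM with exact Poisson 95% intervals, and log2 ratios have exact conditional binomial intervals (scipy 1.17.1). Thinning used a fixed seed. Doublets at 7-day (10 of 549 cells, 1.82%) were called with Scrublet in scanpy 1.11.5 and kept, and phases were called in scanpy. The study compared cells with a rank sum test, which was not used because cells of 1 library are not replicates. The comparison of summed counts was tested on simulated counts drawn without variation between cells. That test therefore does not cover the spread between cells, and it did not include the filters, thinning or phase calls. Positions are those of GENCODE 44.

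The groups and gene lists were chosen with earlier results of these data known. Genes named by rule were up to 15 per direction past 1.5-fold with an interval beyond 0 and past 1.5-fold without the 3 highest cells, list members past 1.5-fold (at most 6 per list and direction) and 16 fixed genes, of which 1 is not reported here. Other genes in the text were chosen after their values were seen. Alternatives changed cells, groups, scaling, filters and phase, and S and G2M cells only was added after seeing the data.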

Additional observations from a re-analysis of the deposited data

Results flagged for a closer look

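Among genes past 1.5-fold at 7-day and with a mean of at least 20 CPM in the other library too, *ELF3*, *NUF2* and *KRT6A* were past 1.5-fold in the opposite direction in another treated library, with counting intervals beyond 0 in both, and the differences between libraries were not tested. *ELF3*, the epithelial ETS factor, had a log2 ratio of *COL1A1*-positive over *COL1A1*-negative cells of -0.67 at 7-day and 0.60 at 3-day. *NUF2*, the kinetochore component, had -0.63 at 7-day and 0.91 at 3-day. *KRT6A*, a keratin of stratified epithelium, had 0.83 at 7-day and -0.80 at 1-day. Below that level the opposite ratios were larger, with *TNF* at 1.28 at 7-day and -2.16 at 1-day (-2.95 to -1.30), and *G0S2* at -0.60 at 7-day and 2.02 at 3-day (1.48 to 2.61).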

How the results depend on the processing

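No paired analysis was possible because each time point is 1 library and no cell is shared between groups. The 23 higher and 11 lower genes became 19 to 29 and 8 to 15 with means over cells, matched depth, centring, a 10% mitochondrial limit, doublets or cells above 80000 UMIs left out, or the 5 positive cells with most *COL1A1* left out. Counts grew where fewer cells or UMIs entered: 87 and 52 with each cell thinned to 18000 UMIs (14 and 7 of them among the original genes), 468 and 208 with groups from thinned UMIs (26 positive cells), 153 and 52 with positive at 3 or more UMIs (33 cells), 94 and 71 in G1 cells, 123 and 36 in S and G2M cells, and 97 and 68 among the first and 206 and 92 among the last cells in barcode order. They fell to 4 and 3 with positive at 1 or more UMIs and to 5 and 1 with a mean of at least 50 CPM, and came to 2161 and 1050 with no filter. In the thinned groups the share of positive cells was 4.74%.

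Of the early transient genes, 2 were higher. They became 1 with means over cells, thinning, 3 or more UMIs, centring, doublets left out, G1 cells or the last cells, 0 with 1 or more UMIs or 50 CPM, 5 with thinned groups and 7 with no filter. Of the late genes, 1 was higher and 0 lower. The higher ones became 2 with thinning, doublets left out or the 5 highest cells left out, 5 with thinned groups or G1 cells, 0 with 1 or more UMIs or the last cells, 4 with 3 or more UMIs, 11 in S and G2M cells and 10 in the first cells. The lower ones became 5 with thinned groups, 1 with 3 or more UMIs, 7 in G1 cells, 2 in the first cells and 8 in the last. TGF-β genes above 0 numbered 25 of 29, and 14 in G1 cells, 15 in the last cells and 20 of 30 with thinned groups. G2M genes below 0 numbered 31 of 37, and 17 of 40 with 3 or more UMIs and 10 of 37 in the last cells. They numbered 23 of 38 with thinned groups and 17 of 21 with a mean of at least 50 CPM. The 4 of 15 in G1 cells cannot be read, because the phase call used these genes.

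Some log2 ratios changed sign. With thinned groups they were -1.23 for *BBC3*, -0.049 for *FAM43A*, 0.0017 for *MPDU1*, -0.46 for *PBX3*, -0.33 for *PCDH9*, -0.44 for *RP4-639F20.1*, -0.63 for *TULP4* and -0.063 for *ULK1*. *BBC3* was also at -0.40 with 3 or more UMIs and -0.026 without doublets. In G1 cells *CCDC88A* was at 0.15, *ELF3* at 0.17, *PBX3* at -0.037 and *ST3GAL5* at -0.031. In S and G2M cells *G0S2* was at 0.71, and in the last cells *KRT6A* was at -0.22 and *TNFSF10* at -0.045. Of the genes past 1.5-fold, 13 of 23 higher and 7 of 11 lower kept their sign in each of the 15 settings tried per gene, *TNF*, *FOXS1*, *TSPAN2* and *IL1RN* among them. They did not keep their size. Their weakest log2 ratios over these settings were 0.18 for *TNF*, 0.40 for *FOXS1*, 0.29 for *TSPAN2* and -0.49 for *IL1RN*. The causes of these changes were not tested.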
